A study of Mus musculus with 8 samples.

Results

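The genes described here are the solute carrier genes that differed between skin lacking corneodesmosin and control skin: 53 genes, out of 5080 genes named in the authors' deposited table of changed probe sets and 33793 probe sets measured. They are the rows of that table whose symbol starts with Slc and a digit, leaving out Slc2a1. To enter the table a probe set had to differ between KO and WT skin by more than 0.5 in log2, at a Benjamini-Hochberg adjusted p under 0.05, so that every difference below was part of the choice of the genes and is given as a description, without a test. In the fit of all probe sets with limma, the adjusted p of the 53 ran between 0.000424 and 0.0475, where an adjusted p under 0.05 alone was reached by 21.3% of all probe sets, 15.2% higher and 6.08% lower in KO. Each gene had a single probe set in the table, of 16 to 35 probes.

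Total RNA came from dorsal skin of C57B/6J mouse embryos at E18.5. The 4 KO embryos carried a keratin 14-driven Cre transgene and floxed Cdsn alleles, which removes corneodesmosin, an adhesive protein of the outer epidermis, from keratin 14-expressing epithelium. The 4 WT embryos carried the same Cre with unfloxed Cdsn. Every skin was delivered by caesarean section, stripped with an adhesive disk and cultured for 4 h at 37 °C, so stripping and culture are shared by KO and WT. Cdsn itself read 8.09, 8.51, 7.995 and 8.91 in log2 intensity in KO skins, against 11.76, 11.82, 11.69 and 12.10 in WT skins; which of its probes fall in the deleted stretch is not known here. The array medians were 4.81 to 4.88 in KO and 4.70 to 4.80 in WT. Over all probe sets the median log2 change (KO minus WT) was 0.09 in the deposited values and −0.02 once each array was centred on its median. Centring makes the array medians equal by construction, and whether this difference is common to all probe sets was not tested.

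Solute carriers are membrane proteins that move amino acids, sugars, ions, metals, vitamins and other small molecules across the plasma membrane or the membranes of organelles. Most work as exchangers or as cotransporters driven by an ion gradient, and some need a partner protein to reach the membrane. They are numbered by family, and a family usually shares a class of substrate. In skin they are known for feeding keratinocytes, for handling zinc, for setting the pH of the barrier and for pigment formation.

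Of the 53 genes, 48 were higher and 5 lower in KO skin. At the authors' criteria 16.2% of all probe sets were called, 11.8% as higher and 4.4% as lower, and among all named genes 3760 were higher and 1320 lower. The share of higher genes was 90.6% among the solute carriers and 74.0% among all named genes; nothing is read from these shares, since the rule used the same contrast. The median change was 0.65 (log2, KO minus WT) over the 53 genes, 0.62 over all named genes and 0.09 over all probe sets. Among the rises it was 0.66 for the solute carriers and 0.70 for the named genes. Most rises were small: 42 of 48 lay at or under 1 on the log2 scale and 6 above it, and 38 named genes elsewhere in the table rose by more than the solute carrier in front. RefSeq lists 375 protein-coding mouse genes with such a symbol, of which 54, or 14.4%, were in the table, Slc2a1 included. The unchanged carriers are not named in the files used here, so their values are not given.

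**Figure D1:**
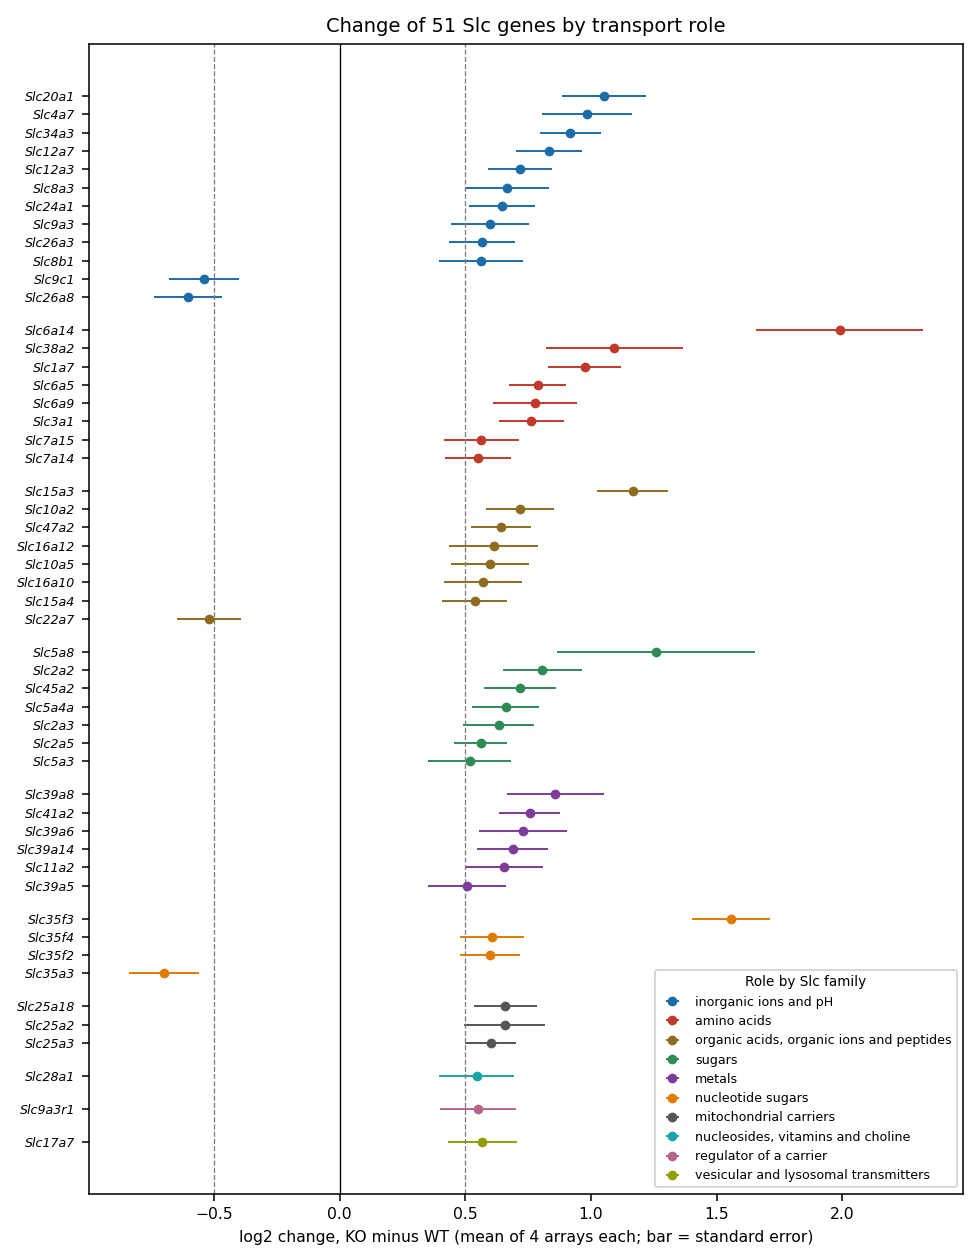
Log2 change (KO minus WT) with its standard error for 51 of the 53 genes, grouped by the substrate class of its family; dashed lines mark the authors' limit of 0.5. Slc6a14 and Slc35f3 lie farthest to the right, and the 4 genes to the left of 0 belong to 3 different classes.

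Amino acid carriers held the largest change. Of 9 genes, 8 were higher and 1 lower in KO skin, with a median change of 0.78. Slc6a14, a sodium- and chloride-driven importer of neutral and cationic amino acids, read 10.18, 10.57, 9.55 and 11.20 in log2 intensity in KO skins, against 8.05, 8.69, 7.90 and 8.91 in WT skins. The groups did not overlap, and KO replicate 3 was the lowest of its group. Slc6a14 averaged 10.38 ± 0.69 in KO and 8.39 ± 0.49 in WT skins (SD, n = 4 each), a log2 change of 1.99 ± 0.33 (SE), or 3.97-fold. Slc38a2, a sodium-coupled importer of small neutral amino acids such as glutamine that is known to be induced when amino acids are scarce, read 11.46, 10.78, 10.44 and 11.36 in KO skins, against 9.98, 9.43, 9.71 and 10.54 in WT skins. Here WT replicate 4 lay above KO replicate 3, so the groups overlapped although their means differed by 1.09 ± 0.27 (SE). The adjusted p of Slc38a2 in limma, 0.0192 with all arrays, became 0.0525 without KO replicate 1, 0.0526 without KO replicate 4 and 0.053 without WT replicate 3.

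The other amino acid genes with higher values are better known from nervous tissue, retina or kidney. They were Slc1a7, a glutamate carrier known from retina (0.97 ± 0.14, SE), the glycine carriers Slc6a5 (0.79 ± 0.11) and Slc6a9 (0.78 ± 0.17), and Slc3a1, the partner subunit of a renal carrier for cystine and dibasic amino acids (0.76 ± 0.13). Slc7a14 (0.55 ± 0.13) and Slc7a15 (0.56 ± 0.15) were nearer to the limit and missed the threshold in 4 and 9 of 16 alternative fits. In Slc6a9 WT replicate 4 stood at 6.87 where the other WT arrays read 6.25 to 6.32, still below all KO arrays at 6.99 to 7.47.

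The activator protein 1 (AP-1) motif, TGANTCA, which reads the same on both strands, was searched in the 250 bases before the start site of the genes, together with the amino acid response motif TGATGNAA and the cyclic AMP response motif TGACGTCA on both strands. RefSeq windows of build GRCm38.p6 were held for 41 of the 53 genes. The AP-1 motif was present in 4 of these, or 9.76%, and in 7.82% of 26984 other genes; the amino acid and cyclic AMP motifs were in 0 of 41, and in 3.91% and 1.77% of other genes. By window, the AP-1 motif was in 6.75% of all 32851 windows of this length. The AP-1 share was near that of other genes, and the motifs were chosen after the values were seen. Nothing is therefore read from these motif counts or from which genes hold a match. The 4 stretches are shown with the motif in capitals, and 3 of them lie before amino acid carrier genes, Slc6a14 among them.
Slc6a14 (chrX:21714768-21714874, + strand): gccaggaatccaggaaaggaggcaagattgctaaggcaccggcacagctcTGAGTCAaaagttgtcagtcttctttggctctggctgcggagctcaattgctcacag
Slc3a1 (chr17:85028157-85028263, + strand): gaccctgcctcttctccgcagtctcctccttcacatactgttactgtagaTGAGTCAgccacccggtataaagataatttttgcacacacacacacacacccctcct
Slc6a5 (chr7:49910058-49910164, + strand): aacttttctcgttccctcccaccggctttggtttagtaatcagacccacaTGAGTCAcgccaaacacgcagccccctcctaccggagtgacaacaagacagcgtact
Slc10a2 (chr8:5105349-5105455, − strand): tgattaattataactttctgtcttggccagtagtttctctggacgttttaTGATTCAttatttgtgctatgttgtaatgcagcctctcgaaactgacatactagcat
The match before Slc6a14 ends 76 bases before the start site, and those before Slc3a1, Slc6a5 and Slc10a2 end 134, 185 and 112 bases before it. A match is a string of letters and not a measured site. The GC box, GGGCGG on either strand, was in 24 of the 41 genes, or 58.5%, and in 35.3% of other genes. The other genes were all those with a window, not matched for gene type or base content, so nothing is read from this difference.

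**Figure D2:**
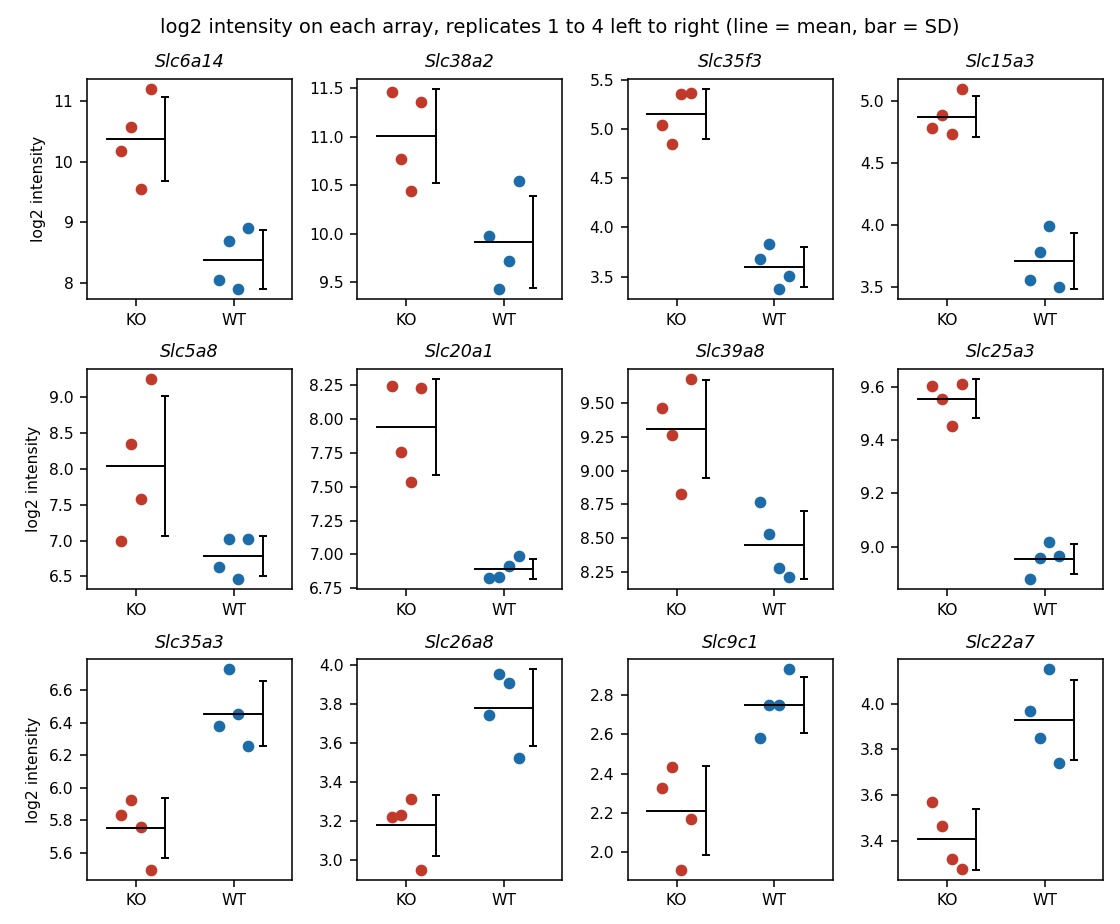
Log2 intensity of 12 genes on each array, KO to the left of WT, with replicates 1 to 4 from left to right, the mean as a line and the SD as a bar; each panel has its own axis. Slc38a2 and Slc5a8 are the panels in which KO and WT values overlap, and the lower row holds genes with lower values in KO.

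Carriers of inorganic ions and protons formed the largest class, with 12 genes, 10 of them higher and 2 lower in KO skin, and none with overlapping groups. Across all probe sets, 25% had groups that did not overlap, and among the 53 genes 47 did; the rule used the same contrast, so nothing is read from that count. Slc20a1, a sodium-phosphate cotransporter of most cell types, read 8.24, 7.76, 7.53 and 8.23 in KO skins, against 6.83, 6.84, 6.91 and 6.99 in WT skins. The WT arrays lay close together (SD 0.08, n = 4) and the KO arrays were spread more widely (SD 0.35, n = 4), with a change of 1.05 ± 0.17 (SE), 2.07-fold. A further phosphate cotransporter, Slc34a3, known from the kidney, was higher by 0.92 ± 0.12 (SE). Slc4a7, which brings bicarbonate into cells with sodium, was higher by 0.98 ± 0.18, and Slc12a7, which moves potassium and chloride out of cells, by 0.83 ± 0.13. Slc12a3, the thiazide-sensitive sodium-chloride cotransporter of the kidney, was higher by 0.72 ± 0.13.

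The other 5 rises of the class were between 0.56 and 0.67. They were the calcium exchangers Slc8a3, Slc24a1 and mitochondrial Slc8b1, the sodium-proton exchanger Slc9a3 and the chloride-bicarbonate exchanger Slc26a3. The threshold was missed by Slc8b1 in 10 of 17 alternative fits, by Slc9a3 in 7 of 16 and by Slc8a3 in 2 of 16. The pair of genes with lower values are both known from sperm. The anion carrier Slc26a8 read 3.22, 3.23, 3.31 and 2.95 in KO skins, against 3.74, 3.96, 3.91 and 3.52 in WT skins (−0.60 ± 0.13, SE). The sodium-proton exchanger Slc9c1 read 2.32, 2.44, 1.91 and 2.17 in KO skins, against 2.58, 2.75, 2.75 and 2.93 in WT skins (−0.54 ± 0.14). Both lay below the median signal of the array, and Slc9c1 missed the threshold without KO replicate 4 (limma, adjusted p = 0.0508) or without WT replicate 4 (0.0521).

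Metal carriers were all higher, 6 of 6, by 0.51 to 0.86. Of these, 4 belonged to the Slc39 (ZIP) family, which brings zinc and related metals into the cytosol and has 14 protein-coding members in RefSeq. Slc39a8, which carries zinc and manganese, read 9.46, 9.26, 8.82 and 9.67 in KO skins, against 8.76, 8.53, 8.28 and 8.22 in WT skins. KO replicate 3 was only slightly above WT replicate 1, and the change was 0.86 ± 0.19 (SE). Slc39a6 was higher by 0.73 ± 0.17 and Slc39a14 by 0.69 ± 0.14. Slc39a5, with 0.51 ± 0.16, was the gene nearest to the limit of 0.5 and missed the threshold in 12 of 17 alternative fits. Slc41a2, a magnesium carrier (0.76 ± 0.12), and Slc11a2, the proton-coupled importer of iron and other divalent metals (0.65 ± 0.15), were also higher.

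Of the zinc-binding metallothioneins and their transcription factors, a list of 6 genes, none was named in the authors' deposited table. Of 17 genes of iron handling 3 were named and all 3 were higher: the metal reductase Steap4 (0.97 ± 0.20, SE), the ferroxidase Cp (0.76 ± 0.15) and Steap1 (0.55 ± 0.16), which had an adjusted p of 0.0617 (limma) once the arrays were centred. Over all probe sets 16.2% were called at the authors' criteria, 11.8% higher and 4.4% lower. Nothing particular to metals is read from either count.

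Of the families that carry sugars and related solutes 7 of the 53 genes were members, 7 higher and 0 lower, with a median change of 0.66; Slc2a1, which the rule leaves out, belongs to the same families and was lower. The largest change was that of Slc5a8, which belongs to the sodium-glucose family but carries monocarboxylates such as lactate and butyrate. It read 6.997, 8.34, 7.58 and 9.25 in KO skins, against 6.63, 7.02, 6.46 and 7.02 in WT skins. KO values were spread over 2.25 log2 units, the widest range of the 53 genes in KO, and KO replicate 1 lay within the WT range. The change of 1.26 ± 0.39 (SE) met the threshold as deposited (limma, adjusted p = 0.045) and missed it in 12 of 17 alternative fits. Among those, the adjusted p was 0.107 without KO replicate 2, 0.0719 without KO replicate 4, and 0.0856, 0.067, 0.108 and 0.0665 without WT replicates 1, 2, 3 and 4.

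The facilitative carriers Slc2a2 (0.81 ± 0.16, SE), known from liver and pancreatic islets, Slc2a3 (0.63 ± 0.14), known from neurons, and the fructose carrier Slc2a5 (0.56 ± 0.11) were higher in KO skin. Slc2a1, the glucose carrier of most proliferating cells, was lower: it read 10.68, 10.48, 10.53 and 10.91 in KO skins, against 11.13, 11.07, 11.32 and 11.25 in WT skins. Its groups did not overlap, and the change was −0.54 ± 0.13 (SE). Slc5a4a (0.66 ± 0.13) and the myo-inositol importer Slc5a3 (0.52 ± 0.16) were higher, and the groups of Slc5a3 overlapped. Slc5a3 had the highest adjusted p of the 53 (limma, 0.0475) and missed the threshold in 12 of 17 alternative fits.

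Slc45a2, a melanosome protein needed for pigment formation, read 6.52, 6.58, 6.82 and 6.58 in KO skins, against 6.00, 6.09, 6.00 and 5.54 in WT skins, a change of 0.72 ± 0.14 (SE). WT replicate 4 was far below the other WT arrays. Of 10 melanocyte markers, 2 were named, Oca2 (0.92 ± 0.17) and Mlana (0.70 ± 0.19), and both were higher. Among all probe sets 16.2% were called, 11.8% higher and 4.4% lower, so nothing is read from this count. The other markers of the list, such as Tyr, Dct and Pmel, were not named, so their values are not given. The mean of Oca2 and Mlana per array lay between 5.73 and 6.00 in KO and between 4.81 and 5.39 in WT. The part of melanocyte number in the rise of Slc45a2 was not tested. In whole skin, fewer or more cells of a type and less or more RNA per cell cannot be told apart.

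Carriers of organic acids, organic ions and peptides numbered 9, of which 8 were higher and 1 lower. Slc15a3, a proton-coupled carrier of histidine and short peptides in the endosomes and lysosomes of immune cells, read 4.78, 4.88, 4.73 and 5.10 in KO skins, against 3.55, 3.78, 3.99 and 3.502 in WT skins. The nearest KO and WT values were 0.74 apart, and the change was 1.17 ± 0.14 (SE), 2.24-fold. Its relative Slc15a4 was higher by 0.54 ± 0.13 and had an adjusted p of 0.0552 (limma) once the arrays were centred. Of 23 macrophage and dendritic cell markers, 15 were named, 14 higher and 1 lower, where 16.2% of all probe sets were called, 11.8% higher and 4.4% lower; 13 of the 15 passed after centring (limma, adjusted p under 0.05). The mean of these 15 per array lay between 6.41 and 6.62 in KO and between 5.76 and 6.04 in WT. Cd74 (1.06 ± 0.16), Cd14 (1.01 ± 0.22) and H2-Eb1 (0.99 ± 0.14) were in front, and the 1 lower marker was Lyz1 (−0.93 ± 0.16). Of a list of 19 genes used as neutrophil markers 5 were named, all higher: S100a8, S100a9, Trem1, Mmp9 and Fpr1. Which cells of the whole skin made these transcripts, neutrophils or others, was not measured. Others of the list, such as Ly6g, Elane and Mpo, were not named. The mean of the 5 per array lay between 4.69 and 5.51 in KO and between 3.83 and 4.32 in WT, and 3 of the 5 passed after centring. The part of macrophages, dendritic cells or neutrophils in the rise of the Slc15 genes was not tested.

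Slc10a2, the bile acid importer of the ileum, was higher by 0.72 ± 0.14 (SE), and the cation exporter Slc47a2 by 0.64 ± 0.12. Slc16a12, known as a creatine carrier, was higher by 0.61 ± 0.18, with overlapping groups, and missed the threshold in 12 of 16 alternative fits. Slc10a5 and the aromatic amino acid carrier Slc16a10 were higher by 0.60 and 0.57, and missed the threshold in 5 of 16 and 8 of 17 alternative fits. Slc22a7, an organic anion carrier known from liver and kidney, read 3.57, 3.46, 3.32 and 3.28 in KO skins, against 3.97, 3.85, 4.15 and 3.74 in WT skins, without overlap (−0.52 ± 0.13, SE).

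In the Slc35 family, known for carrying nucleotide sugars into the Golgi, 4 of 27 RefSeq genes were named, and they included both the second-largest rise and the largest fall of the 53 genes. Slc35f3, whose substrate is less well settled, read 5.05, 4.85, 5.36 and 5.37 in KO skins, against 3.68, 3.83, 3.37 and 3.51 in WT skins. The nearest KO and WT values were 1.01 apart, the widest gap among the 53, and the gene was 2.95-fold higher (log2 change 1.56 ± 0.16, SE). Slc35a3, the Golgi carrier of UDP-N-acetylglucosamine, a building block of branched glycans, read 5.83, 5.92, 5.76 and 5.50 in KO skins, against 6.38, 6.73, 6.46 and 6.26 in WT skins. Again no KO value reached the WT range, and the mean stood at 0.616 times the WT level (−0.70 ± 0.14). Slc35f4 (0.61 ± 0.13) and Slc35f2 (0.60 ± 0.12) were higher.

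Mitochondrial carriers of the Slc25 family, with 47 protein-coding members in RefSeq, were named 3 times, each time higher in KO. The glutamate carrier Slc25a18 read 4.72, 4.94, 4.44 and 4.70 in KO skins, against 4.02, 4.10, 3.96 and 4.08 in WT skins (0.66 ± 0.13, SE). The phosphate carrier Slc25a3, which supplies phosphate for ATP synthesis, read 9.60, 9.55, 9.45 and 9.61 in KO skins, against 8.88, 8.96, 9.02 and 8.96 in WT skins. Its spread was small in both groups (SD 0.07 in KO and 0.06 in WT, n = 4 each), and the change was 0.60 ± 0.10. Slc25a2, an ornithine carrier, was higher by 0.66 ± 0.16 and missed the threshold in 3 of 16 alternative fits.

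The remaining 3 genes stand alone in their classes. The nucleoside importer Slc28a1 read 4.66, 4.23, 4.53 and 4.55 in KO skins, against 3.72, 4.27, 3.82 and 3.97 in WT skins, so that KO replicate 2 lay within the WT range (0.54 ± 0.15, SE); it missed the threshold in 12 of 16 alternative fits. The vesicular glutamate carrier Slc17a7 read 4.11, 4.19, 4.12 and 4.01 in KO skins, against 3.89, 3.52, 3.40 and 3.34 in WT skins (0.57 ± 0.14). Slc9a3r1 carries a solute carrier symbol but encodes a scaffold protein that holds Slc9a3 and other membrane proteins at the cell surface. It read 8.73, 8.42, 8.42 and 8.66 in KO skins, against 7.96, 7.90, 7.79 and 8.39 in WT skins (0.55 ± 0.15), and missed the threshold in 10 of 17 alternative fits.

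**Figure D3:**
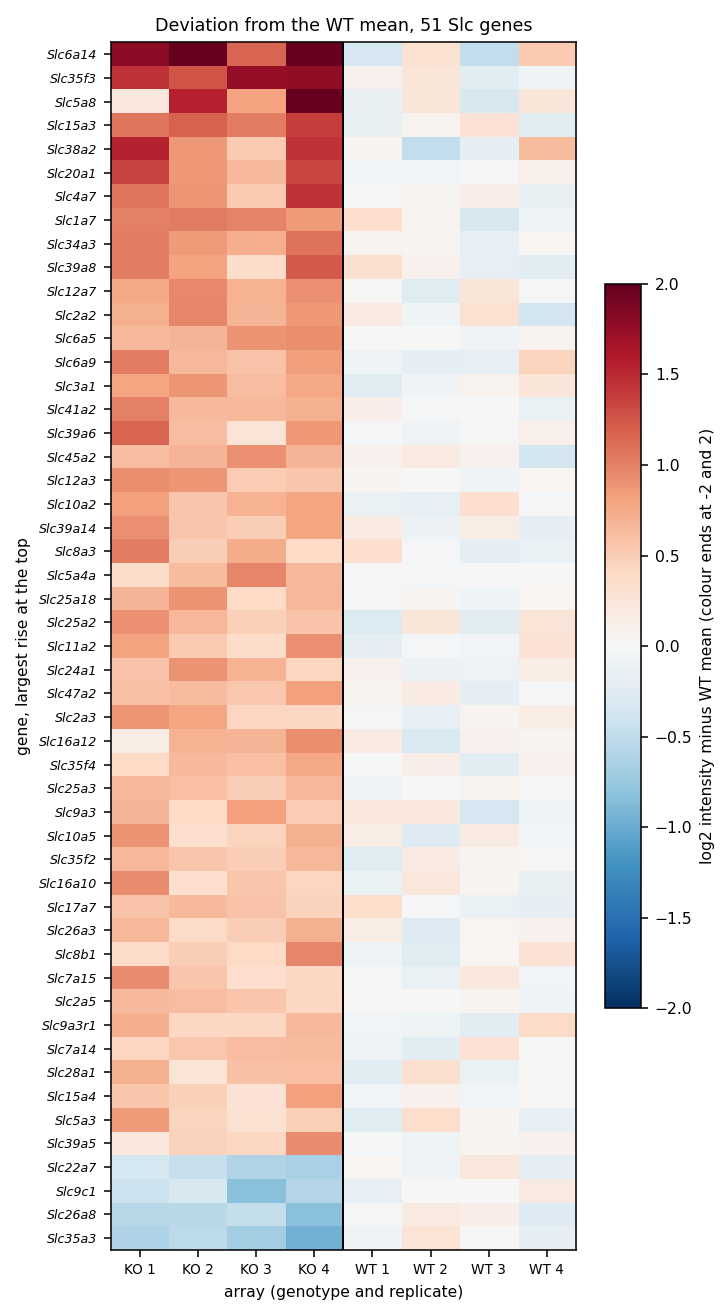
Log2 intensity of 51 of the 53 genes on each array minus the mean of the 4 WT arrays, KO arrays left of the line and genes ordered from the largest rise to the largest fall. KO replicate 3 is paler than the other KO arrays in many of the genes with higher values.

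Across the 4 KO arrays the median deviation of the 53 genes from their WT means was 0.72, 0.64, 0.55 and 0.71 for replicates 1 to 4, against −0.02, −0.01, 0.01 and 0.01 for the WT replicates. The same median over all probe sets was 0.08 to 0.11 on the KO arrays. KO replicate 3 was the lowest KO array in 23 of the 48 genes with higher values, and in 15 of the 23 whose signal was above the array median. The highest KO array was replicate 4 in 19 of the 48 and replicate 1 in 18. The SD within a group had a median of 0.20 in KO and 0.20 in WT over the 53 genes, and of 0.19 and 0.20 over all probe sets. In deviations from the group means over the 8 arrays, which leave out the genotype difference, Slc6a14 was most like Slc15a4 (Pearson r = 0.87), Slc5a8 (0.79) and Slc11a2 (0.77). Slc35a3 was most like Slc26a8 (0.85), Slc2a5 (0.71) and Slc5a3 (0.59). These correlations describe 8 arrays that share any difference in RNA quality or tissue make-up. They are the highest picked for each gene from all the others, and such picking alone can give high values, so nothing is read from them.

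**Figure D4:**
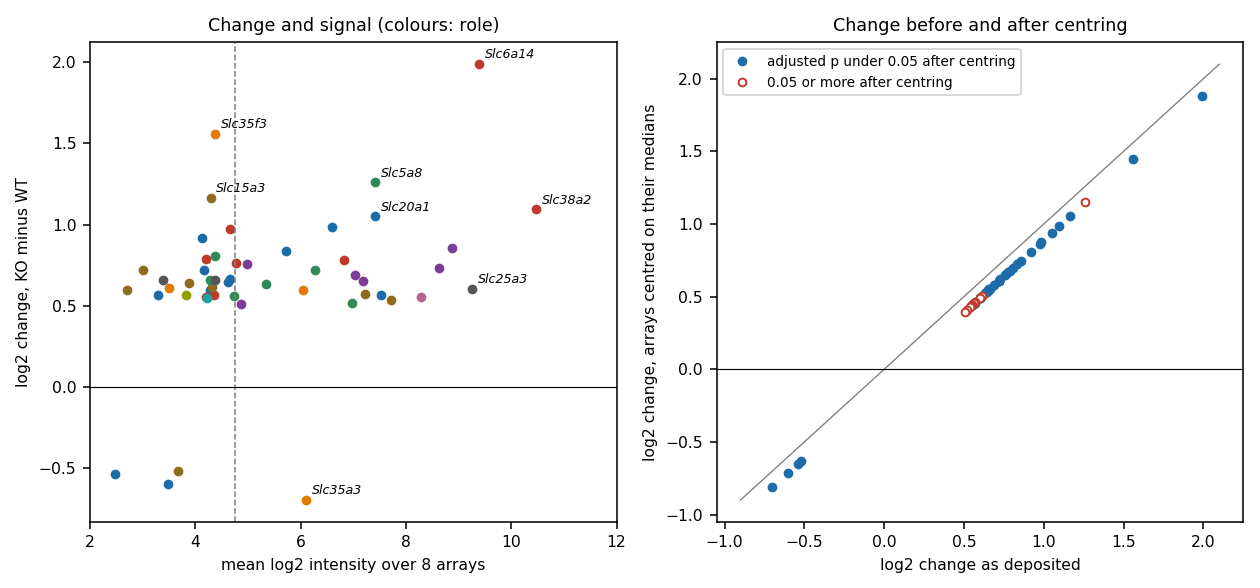
Left, log2 change (KO minus WT) against the mean log2 intensity over the 8 arrays, with the median of all probe sets, 4.76, as a dashed line; right, the log2 change after each array was centred on its median against that as deposited, with the line of equality. Of the 51 genes drawn 27 lie left of the dashed line, and 12 with higher values as deposited have open symbols after centring.

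The genes were split by signal at the median of all probe sets, which is not a limit of detection, and some lay close to it on either side. The mean over the 8 arrays was above the median of all probe sets, 4.76, in 24 of the 53 genes (45.3%), against 40.2% of all named genes. Of these 24, 23 were higher in KO, among them Slc6a14, Slc38a2, Slc5a8, Slc20a1, Slc4a7 and 6 of 6 metal carriers, and the 1 lower gene was Slc35a3. The mean includes the KO arrays, so a gene can pass through its KO values. Slc3a1 and the metal carriers Slc41a2 and Slc39a5 passed although their WT means, 4.40, 4.60 and 4.61, lay below the median of all probe sets. Nothing is therefore read from these counts. Of the 29 at or below that median, 25 were higher and 4 lower, among them Slc35f3, Slc15a3, Slc1a7, Slc2a2, Slc34a3, Slc12a3, Slc26a8, Slc9c1 and Slc22a7. No detection value was used here, so whether these 29 were above background was not measured.

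With each array centred on its median, the median change of the 53 genes was 0.54, and 41 kept an adjusted p under 0.05 (limma), 36 higher and 5 lower, where 17.9% of all probe sets passed, 8.77% higher and 9.1% lower. After quantile normalization 43 passed, 38 higher and 5 lower, where 9.56% of all probe sets were higher and 9.38% lower (18.9% in all). After cyclic loess 42 passed, 37 higher and 5 lower, where 9.55% were higher and 9.37% lower (18.9% in all). After centring this was 77.4% of the 53 and 80.5% of all named genes. The 12 that missed it were Slc5a8, Slc16a12, Slc10a5, Slc16a10, Slc8b1, Slc7a15, Slc9a3r1, Slc7a14, Slc28a1, Slc15a4, Slc5a3 and Slc39a5, with adjusted p between 0.0505 and 0.129. No gene changed direction in any of 17 alternative fits, and 32 of the 53 passed in each of those that measured them. The 4 genes nearest to the limit of 0.5 were Slc39a5 (0.51), Slc5a3 (0.52), Slc22a7 (−0.52) and Slc15a4 (0.54). Outside it, 1734 probe sets had an adjusted p under 0.05 but a smaller change, of up to 0.499982 in size; they carry no gene names in the files used here.

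Genes that work with the carriers were counted in the same way. The share of all probe sets at the authors' criteria, 16.2%, with 11.8% higher and 4.4% lower, stands beside each count below, which is of genes; nothing particular to a list is read from these counts. Of 32 genes of the ATF4-led response to scarce amino acids, carriers left out, 8 were named, 7 higher and 1 lower. Atf4 itself, its central transcription factor, was higher by 0.93 ± 0.13 (SE), Gdf15 by 0.80 ± 0.16 and the asparagine synthetase Asns by 0.65 ± 0.12, while the change of Ddit4 was −0.83 ± 0.15. Of 21 genes of arginine and polyamine metabolism 5 were named and all 5 were higher, led by the polyamine acetylase Sat1 (1.46 ± 0.21) and the ornithine decarboxylase Odc1 (1.20 ± 0.21). Of 19 genes for companions and regulators of carriers 4 were named and higher, among them the ubiquitin ligase Nedd4l (1.06 ± 0.26), whose groups overlapped, and the kinase Sgk1 (0.99 ± 0.21). Of 33 targets and regulators of the oxidative stress factor NRF2 7 were named, all higher. Of 27 glycolysis and hypoxia genes 3 were named, and all 3 were lower, with changes of −0.76 ± 0.14 for Egln3, −0.64 ± 0.12 for Ldha and −0.50 ± 0.16 for Pdk1. After centring, 6 of the 8 ATF4-response genes passed the threshold, 4 of the 5 of polyamine metabolism, 3 of the 4 companions, 6 of the 7 of NRF2 and 3 of the 3 of glycolysis (limma, adjusted p under 0.05).

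Named genes of other membrane transport families were counted too, again where 16.2% of all probe sets were called, 11.8% higher and 4.4% lower. Of 14 genes of the Slco family of organic anion importers 3 were named, all higher, with Slco4a1 at 1.40 ± 0.26 (SE). Of 11 aquaporins 3 were named, all higher, among them the water and glycerol channel Aqp3 of keratinocytes (0.91 ± 0.19). Of 81 potassium channel genes 15 were higher and 1 lower, of 45 ion-pumping ATPase genes 7 were higher, and of 24 transient receptor potential channels 5 were higher. Of 50 ABC transporter genes 4 were higher and 1 was lower. After centring, where 17.9% of all probe sets and 80.5% of all named genes passed (limma, adjusted p under 0.05), those that passed were 3 of the 3 Slco genes, 2 of the 3 aquaporins, 10 of the 16 potassium channels, 3 of the 7 ATPases, 4 of the 5 transient receptor potential channels and 4 of the 5 ABC transporters.

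Markers of other cell types were counted against the same 16.2% of all probe sets called, 11.8% higher and 4.4% lower. Of 16 erythroid markers 3 were named, of 20 muscle markers 2, of 15 nerve markers 2, of 18 endothelial and pericyte markers 3, of 18 fibroblast markers 2 and of 15 adipocyte markers 1, and all of these were higher as deposited. After centring, 1, 1, 2, 0, 0 and 0 of them passed (limma, adjusted p under 0.05). Of 16 keratinocyte markers 2 were named, Flg (−0.57 ± 0.12, SE) and Lor (−0.53 ± 0.14), both lower in KO and both past the threshold after centring.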

How the data were processed

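Gene expression was measured on 8 Affymetrix Gene Mouse 2.0 ST arrays (the chip named per the file headers), 1 per embryo. The labels name neither litter nor sex, and each p-value reflects only how these embryos varied. Each deposited value is the log2 intensity of a probe set. RMA is named in the submitters' processing notes; for its version and the genome build, the sources used here give nothing. The authors' deposited table gives, per the file headers, for 5460 probe sets log2 means for KO and for WT, the linear KO/WT ratio and its log2, and a p-value before and after adjustment. It also holds, as deposited, a probe count and an annotation class score, which was 1 for all 53 genes.

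For the KO minus WT contrast, lmFit and eBayes of limma 3.58.1 under R 4.3.3 were run on the log2 values with genotype alone, and p was adjusted over all 33793 probe sets. The fit returned all 5460 probe sets of the authors' table. It was tested on simulated data. Of the authors' probe sets, 5161 carried a symbol; a gene with several was represented by the probe set whose mean over the 8 arrays was highest. All 53 symbols were found in RefSeq's GRCm38.p6 table, and 52 accessions matched under the same symbol. Of the 53 genes, 2 enter the counts and medians but are not reported here by name. Planned protein features were not computed, because no protein sequences were used here. The array number limits the precision.

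The genes and lists were chosen with earlier results of these data known. Roles followed the Slc family number. The rule for named genes took the 5 largest rises and falls, up to 5 per role, the 4 nearest to the limit and up to 3 per list; genes outside it (such as Slc3a1, Slc7a14, Slc9a3 and Asns) were named after their values were seen, and the promoter motifs were chosen likewise. Alternatives were 3 scalings, a filter on low signal, 2 kinds of moderation, array weights, a replicate block, leaving out each array and leaving out KO replicate 3 with WT replicate 1.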

Additional observations from a re-analysis of the deposited data

Results flagged for a closer look

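In each of 102 groups of 4 values, the lowest and the highest array were compared with the nearest of the others. In 3 groups the gap exceeded Dixon's critical share of the range, where chance alone would give about 5.1. Slc6a9, a glycine carrier, was highest in WT replicate 4, at 6.87 (others 6.25 to 6.32). The melanosome gene Slc45a2 was lowest in WT replicate 4, at 5.54 (others 6.00 to 6.09). The magnesium carrier Slc41a2 was highest in KO replicate 1, at 5.60 (others 5.25 to 5.31).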

How the results depend on the processing

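The 53 genes kept their direction under every alternative that measured them, and the share of higher genes stayed at 90.6%, or 95.8% with low signals left out. The filter on low signal used the mean over KO and WT arrays together, so nothing is read from the share of 95.8%. The median change, 0.65 as deposited, became 0.54 after centring, 0.53 after quantile normalization and 0.52 after cyclic loess. These scalings make the arrays alike by construction. With them the median change of all probe sets went from 0.09 to −0.02, −0.007 and −0.006. The genes past the threshold numbered 41, 43 and 42 there (38 in all 3 scalings), 24 with low signals left out (23 higher and 1 lower, the 29 others not being fitted), and 36 without moderation (31 higher). Over all probe sets, 7194 passed as deposited, 5138 higher and 2056 lower. Centring gave 2965 higher and 3075 lower, quantile normalization 3229 and 3169, cyclic loess 3227 and 3165, and leaving out low signals 3298 in all, 2419 and 879. Leaving out 1 array in turn gave 40 to 48 of the 53 genes (35 to 43 higher and 4 to 5 lower), a median change of 0.63 to 0.67, and 4821 to 6424 probe sets, 3486 to 4604 higher and 1335 to 1820 lower. The lowest counts were without WT replicate 3, where 13 of the 53 missed the threshold and 1335 probe sets were lower. Without KO replicate 3 and WT replicate 1 together, 42 of the 53 passed and 1358 probe sets were lower. The labels name no litter, so whether same-numbered KO and WT arrays are paired is not known here. Their correlations of deviations were −0.03, 0.14, 0.23 and 0.01 for replicates 1 to 4. KO replicates 2 and 3 correlated best with the WT array of their own number, and KO replicates 1 and 4 did not. With the replicate block 49 of the 53 genes passed, 44 of them higher, and 6250 probe sets in all. Taking the lowest-mean probe set of each gene or class 1 alone left the 53 as they were, since each had 1 probe set of that class.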
